A study of Homo sapiens with 24 samples.

Results

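Cystatins are small proteins that block papain-like cysteine proteases. The genes CST1, CST2, CST4, CST3, CST6, CSTA and CSTB were followed through 8 time points of RAS induction in human fibroblasts. They were found by the platform's gene symbol and are 7 of the 18774 genes that a single symbol names on the array, with 8 probes. Where a gene had several probes, the one with the highest mean log2 value over the 24 arrays of the deposited series matrix was read. That step acted on CST6 alone, whose probes averaged 6.14 and 5.68, so that probe was chosen by its mean level, and these means are given as a description. The cells were IMR90, a line of human fetal lung fibroblasts, expressing ER:RAS-G12V, an activated RAS joined to the estrogen receptor that 4-hydroxytamoxifen (4-OHT) switches on. Cells given 100 nM 4-OHT for 2, 8 or 24 h, or for 2, 4, 6 or 8 d, were set against 0 h cells, which received none. All 8 groups expressed ER:RAS-G12V and each held 3 biological replicates, 1 of each batch (A, B and D), giving 24 arrays of the Illumina human-6 v2 type. Cells were passaged with trypsin on the day before harvest. Untreated cells of later days were not analysed here, so the 4-OHT, the active RAS and the days in culture cannot be told apart.

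Cystatins sit in the active-site cleft of enzymes such as cathepsins B, K, L, S and V, and some also block legumain through a separate face. CST1, CST2 and CST4 encode the secreted salivary-type cystatins SN, SA and S, which are closely related copies. CST3 encodes cystatin C, a secreted inhibitor made by most cell types, and CST6 encodes cystatin E/M, which is best known from skin. CSTA and CSTB encode stefins A and B, which stay inside the cell. Active RAS drives cultured fibroblasts into senescence, a lasting growth arrest with a changed secretome.

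The salivary-type genes and CST3 lie side by side on chromosome 20, in a run of 10 protein-coding cystatin genes ordered CSTL1, CST11, CST8, CST9L, CST9, CST3, CST4, CST1, CST2 and CST5. Only CST3, CST4, CST1 and CST2, which are neighbours in that run, were above background on at least 3 arrays. CSTB lies on chromosome 21, CST6 on chromosome 11 and CSTA on chromosome 3. Of the 7 genes, 1 matched a RefSeq promoter entry, CST3. It is shown beside that of CST5, the end of the same run, whose probe was above background on 0 arrays. Each sequence is the 150 bases before the RefSeq start (GRCh38.p14, minus strand, 5′ to 3′, chr20:23637956-23638105 for CST3 and chr20:23879749-23879898 for CST5), with GGGCGG, the GC box, in capitals.
CST3: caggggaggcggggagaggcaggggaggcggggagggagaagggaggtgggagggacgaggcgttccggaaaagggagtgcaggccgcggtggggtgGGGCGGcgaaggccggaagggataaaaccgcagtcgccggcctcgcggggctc
CST5: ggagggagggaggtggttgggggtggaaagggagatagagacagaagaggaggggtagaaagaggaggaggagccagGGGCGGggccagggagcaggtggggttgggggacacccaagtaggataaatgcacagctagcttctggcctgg
The CST3 stretch was 73.3% G and C and the CST5 stretch 62.0%, against a median of 60.0% over all promoters. In the 250 bases before the start, on both strands, each held 1 match to GGGCGG, which 42.6% of 35116 promoters hold. Neither held TATAAA (10.7% of promoters), TGANTCA (6.57%) or CCAAT (32.0%). These matches describe letters and not bound sites.

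The deposited log2 intensities were corrected for background and quantile-normalized, and a probe counted as above background at a model probability under 0.01. Between 26.5% and 30% of probes were above background on an array, and the number of arrays limits the precision. The 10 fibroblast markers (such as COL1A1, VIM and THY1) were above background on all 24 arrays. At 8 d against 0 h, 2 of them were higher and 7 lower, against 24.1% and 23.5% of all genes (median −1.21 beside 0.02 over all genes). Among the 7 lower were COL1A1 at −1.57 ± 0.11 (adjusted p = 9.64e-11) and THY1 at −1.24 ± 0.16 (adjusted p = 9.48e-07). The 2 higher were COL6A1 (0.46 ± 0.14, adjusted p = 0.0082) and COL6A2 (0.58 ± 0.22, adjusted p = 0.0362). VIM was not called (0.07 ± 0.09, adjusted p = 0.551). Between 4 d and 2 d, 6 were higher at 4 d and 0 lower, against 17% and 19.2% of all genes. Of markers of other cells, CDH1, KRT5, KRT14 and CLDN4 of epithelium, CDH5 of endothelium, and PTPRC, CD14, LYZ, CD3E and ITGAM of blood cells were above background on 0 arrays. Others on the same lists were measured. Of 8 epithelial markers 4 were tested, with 0 higher and 3 lower at 8 d against 0 h. Of 6 endothelial markers 5 were tested, with 2 higher and 0 lower at 8 d against 0 h. VWF was 1 of the 2 higher (0.57 ± 0.23, adjusted p = 0.0414, and 1.11 ± 0.23 at 4 d, adjusted p = 0.000321). TEK, above background on 24 arrays, went the other way against 0 h. It was −1.555 ± 0.18 at 2 d (adjusted p = 7.06e-07) and −0.38 ± 0.18 at 8 d, which was not called (adjusted p = 0.0844). Of 8 immune markers 2 were tested, and both CD68 (0.99 ± 0.11, adjusted p = 4.24e-08) and CSF1R (0.39 ± 0.14, adjusted p = 0.0244) were higher at 8 d. The part of these moves in the cystatin values was not tested. On the first principal component, 65% of the variance of 10952 genes without the cystatins, the 0 h to 24 h arrays lay at −34.6 to −23.7 and the 2 d arrays at −13.4 to −8.87. The batch A, B and D arrays of 4 d were spread out, with values of 33.6, 46.5 and 24.8, and the 6 d and 8 d arrays lay at 41 to 50.8. The 4 d readings of CST1, CST2, CST4, CST3 and CSTB are therefore given by batch.

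Of the 7 cystatin genes, 6 were above background on at least 3 arrays and were tested, and CSTA was not. CST2 and CST4 entered the test through arrays of 4 d to 8 d alone, so a count that holds them cannot be read as support. Genes were called at an adjusted p under 0.05 (limma, Benjamini-Hochberg over 10958 genes). At 2 h against 0 h no cystatin gene was called by limma, and 0 had an unadjusted p under 0.05, where 0.42% of all genes were higher and 0.201% lower. At 8 h against 0 h there was again no call and 0 had an unadjusted p under 0.05, with 2.13% of all genes higher and 2.45% lower. At 24 h against 0 h no cystatin gene was called either, 1 (CST1) had an unadjusted p under 0.05, and 6.89% of all genes were higher and 11.2% lower.

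Calls among the cystatins began at 2 d. At 2 d against 0 h, CST1 and CSTB were higher and 0 were lower, where 11% of all genes were higher and 12.5% lower. At 4 d against 0 h, CST1, CST3 and CST4 were higher and 0 lower, against 21.8% and 22.3% of all genes. At 6 d against 0 h the 5 genes CST1, CST2, CST4, CST3 and CSTB were higher and 0 lower, against 23.8% and 21.7% of all genes. The same 5 genes were higher at 8 d against 0 h, and 0 lower, against 24.1% and 23.5%. Between 4 d and 2 d, CST1, CST3 and CST4 were higher at 4 d and CSTB was lower, where 17% of all genes were higher and 19.2% lower, and CST2 (0.03 ± 0.16, adjusted p = 0.913) and CST6 were not called. Between 8 d and 4 d, CST1, CST2, CST4 and CSTB were higher at 8 d and 0 lower, against 10.4% and 10.1%, and CST3 and CST6 were not called. An F test over all 8 time points called CST1, CST2, CST4, CST3 and CSTB, with CST6 uncalled (adjusted p = 0.215), where 69.6% of all genes passed. The comparisons with 0 h share its 3 arrays. The rise of CST1 was known when the genes were chosen, so its p-values describe the fit.

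**Figure D1:**
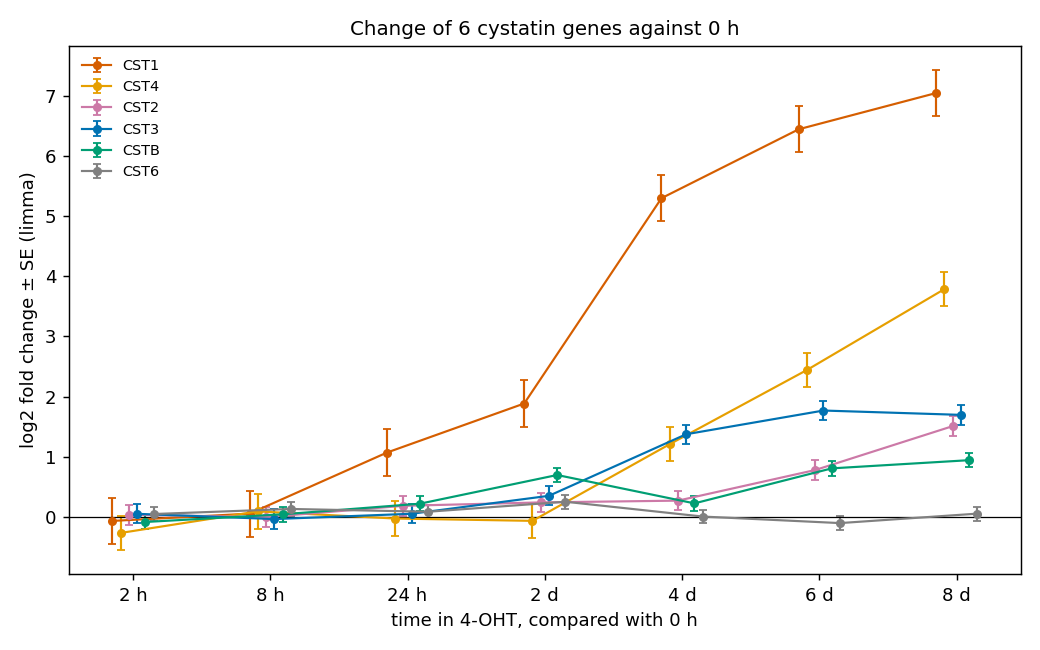
Log2 fold change against 0 h (y axis, ± SE from limma) of the 6 tested cystatin genes at each later time (x axis), with n = 3 arrays per time. CST1 climbed to 7.05 at 8 d, CST4 to 3.79, CST3 levelled at 1.77 and 1.70, CSTB dipped to 0.22 at 4 d, and CST6 was at most 0.25 from 0. The points of CST4 and CST2 are fitted values and not bounds.

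CST1, which encodes cystatin SN, rose the most. At 0 h its log2 intensity was 5.28, 5.33 and 5.88 in batches A, B and D, with 1 of the 3 arrays above background. At 2 h it was 5.39, 5.12 and 5.78, and at 8 h it was 5.46, 5.40 and 5.80. These 9 values overlapped across the 3 times, and at each time the batch D array was the only one above background. At 24 h the values were 6.29, 6.19 and 7.22, each above every earlier array of CST1 and above background. At 2 d they were 7.33, 6.74 and 8.08, a range that overlapped that of 24 h. At 4 d they were 9.98, 11.92 and 10.49, with no overlap with 2 d. The last times overlapped in part, with 11.81, 11.88 and 12.14 at 6 d and 12.06, 12.37 and 13.20 at 8 d. In order of mean level, 2 h, 0 h and 8 h could not be separated by their arrays, then 24 h and 2 d overlapped, then 4 d, 6 d and 8 d overlapped in turn.

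The fitted change of CST1 against 0 h was 1.07 ± 0.38 at 24 h (SE, adjusted p = 0.0557), and all 3 batches were higher, by 1.01, 0.86 and 1.33. With the batch letter as a replicate block the 24 h value was called (adjusted p = 0.0265). It was smaller and not called with the series matrix values (0.80, adjusted p = 0.125) and with an offset of 50 (0.71, adjusted p = 0.168). Without the 24 h D array it was 0.75 (adjusted p = 0.241). At 2 d CST1 was 3.69-fold above 0 h (1.89 ± 0.38, adjusted p = 0.000866). At 4 d it was 39.4-fold above 0 h (5.30 ± 0.38, adjusted p = 2.33e-10), and by 6 d 87.1-fold (6.45 ± 0.38, adjusted p = 5.19e-12). At 8 d it was 132-fold above 0 h (7.05 ± 0.38, adjusted p = 9.25e-13), the third highest of the 10958 changes in that comparison. The 0 h level behind these folds was above background on 1 of 3 arrays, and with a normexp offset of 50 the 8 d value was 6.24. In bulk cells, more cells with a transcript and more of it per cell cannot be told apart.

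The largest step of CST1 between successive times was from 2 d to 4 d. It was 10.7-fold (3.41 ± 0.38, adjusted p = 3.59e-07), and its size differed by batch, 2.64 in A, 5.18 in B and 2.42 in D. From 4 d to 8 d CST1 gained a further 3.36-fold (1.75 ± 0.38, adjusted p = 0.00202), by 2.08, 0.45 and 2.71 in the batches. At 4 d batch B read 11.92, between the 6 d values of batches A and D. Without batch B the step from 2 d to 4 d was 2.53, the 4 d value against 0 h was 4.64 and the step from 4 d to 8 d was 2.40, all 3 still called. Without batch A the step from 4 d to 8 d was 1.58 and was not called (adjusted p = 0.063).

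**Figure D2:**
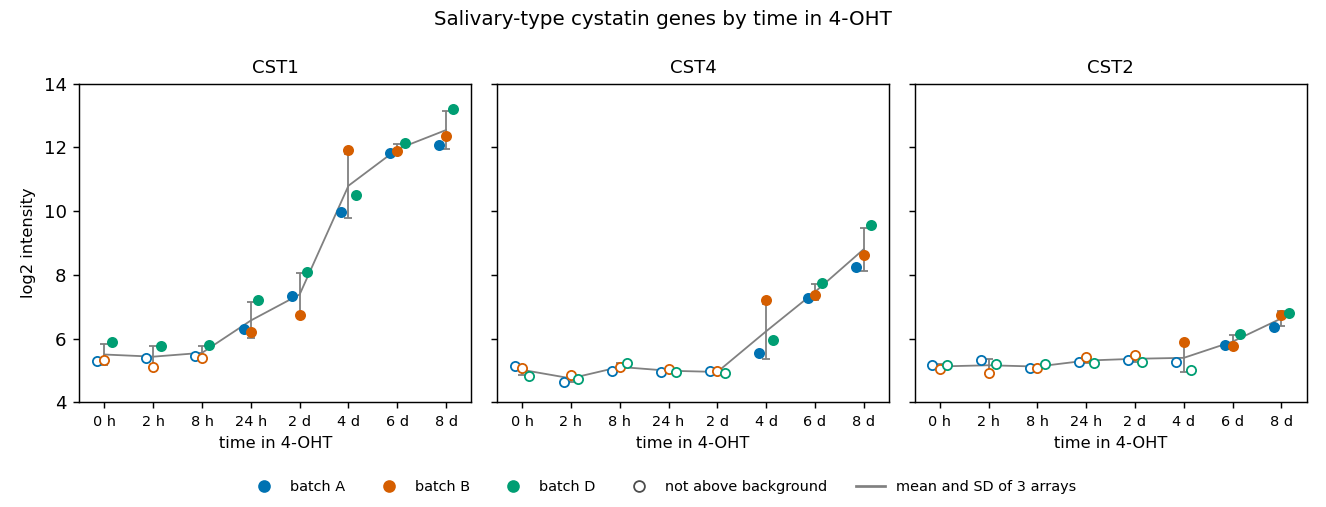
Log2 intensity (y axis) of CST1, CST4 and CST2 on each array by time in 4-OHT (x axis), coloured by batch, with open circles for arrays not above background and lines for the mean ± SD of 3 arrays. CST1 was above background on all 3 arrays from 24 h, CST4 from 4 d and CST2 from 6 d. Before that, the batch D arrays of CST1 at 0 h, 2 h and 8 h and the batch B array of CST2 at 4 d were too. The batch B array was the highest of each gene at 4 d.

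CST4, which encodes cystatin S, was not above background on any of the 15 arrays of 0 h to 2 d, where it lay between 4.65 and 5.24. At 4 d it read 5.54, 7.20 and 5.95 in batches A, B and D, all above background and above every earlier array. At 6 d it read 7.28, 7.36 and 7.75, and at 8 d 8.24, 8.62 and 9.55, and each of these times lay wholly above the one before. Against 0 h CST4 was at least 1.65-fold higher at 4 d (1.21 ± 0.29, adjusted p = 0.00144) and at least 3.89-fold higher at 6 d (2.44 ± 0.29, adjusted p = 2.13e-07). At 8 d it was at least 9.86-fold higher (3.79 ± 0.29, adjusted p = 1.63e-10). Each bound sets the mean of the later arrays against the lowest signal above background on the earlier arrays, since the transcript was not measured there. The step from 4 d to 8 d was measured on both sides and was 5.97-fold (2.58 ± 0.29, adjusted p = 8.15e-07), by 2.70, 1.43 and 3.60 in the batches. The 4 d rise leaned on batch B, with 0.40, 2.11 and 1.11 in the batches, and without batch B it was 0.75 and not called (adjusted p = 0.0747). Likewise the step of CST4 from 2 d to 4 d was 1.28 with all batches and 0.80 without batch B (adjusted p = 0.0804).

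CST2, which encodes cystatin SA, appeared last. It was above background on 7 arrays, those of 6 d and 8 d and the batch B array of 4 d. At 4 d it read 5.26, 5.89 and 5.03, against 5.16, 5.03 and 5.18 at 0 h, and of these only the 4 d batch B array was above background. At 6 d it read 5.81, 5.77 and 6.13, and at 8 d 6.36, 6.72 and 6.81, and these times did not overlap with 0 h or with each other. The 4 d difference was 0.27 ± 0.16 and was not called (adjusted p = 0.194). At 6 d CST2 was at least 1.32-fold above 0 h (0.78 ± 0.16, adjusted p = 0.000409) and at 8 d at least 2.19-fold (1.51 ± 0.16, adjusted p = 5.89e-08). From 4 d to 8 d it was 2.36-fold higher, against a 4 d level that 1 of 3 arrays measured (1.24 ± 0.16, adjusted p = 8.91e-06). By batch this step was 1.09, 0.83 and 1.79. CST2 was called at 4 d without the 4 d D array (0.45, adjusted p = 0.0294) and without batch D (0.49, adjusted p = 0.0411).

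CST1, CST2 and CST4 are close copies, so a probe of one may also catch transcript of another. The probe sequences were not used here and such shared signal was not tested. The values are set side by side here as a description. At 24 h and 2 d CST1 was above background on all 6 arrays, between 6.19 and 8.08, while CST4 and CST2 were above background on 0 of them. A small shared part of these CST1 signals would stay below background, so these arrays cannot decide it. CST1 read 12.06 in batch A at 8 d and 12.14 in batch D at 6 d, close values. On the same 8 d and 6 d arrays CST4 read 8.24 and 7.75, and CST2 6.36 and 6.13, so both were higher on the 8 d array. In batch B, CST1 read 11.92 at 4 d and 11.88 at 6 d, also close. There CST4 read 7.20 and 7.36, and CST2 5.89 and 5.77, so CST4 was slightly higher and CST2 slightly lower at 6 d. These pairs differ in time or in batch and cannot decide whether signal was shared.

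**Figure D3:**
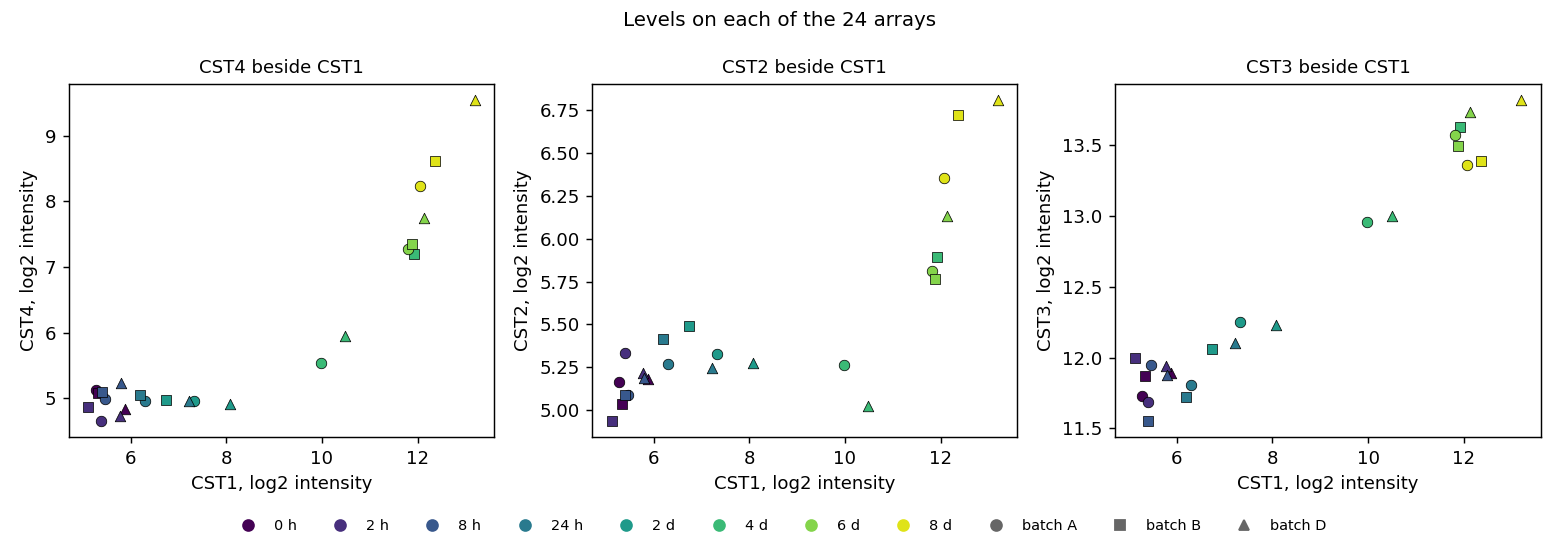
Log2 intensity of CST4, CST2 and CST3 (y axes) beside that of CST1 (x axis) on each of the 24 arrays, coloured by time and shaped by batch. CST4 and CST2 are not above background while CST1 moves to 8.08 at 2 d, and they separate from the floor at higher CST1 values. CST3 is higher where CST1 is higher, with the 8 d A and B arrays below the 6 d arrays.

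CST3, which encodes cystatin C, was bright on every array and rose late. At 0 h it read 11.73, 11.87 and 11.89, and all arrays of 2 h, 8 h and 24 h lay between 11.55 and 12.10, overlapping 0 h. At 2 d it read 12.25, 12.06 and 12.23, each above the 0 h arrays, with a difference of 0.35 ± 0.16 that was not called (adjusted p = 0.122). At 4 d it read 12.96, 13.63 and 13.00, then 13.57, 13.49 and 13.73 at 6 d, and 13.36, 13.39 and 13.82 at 8 d. The 4 d arrays stood wholly above 2 d, while 4 d, 6 d and 8 d overlapped. CST3 was 2.59-fold above 0 h at 4 d (1.37 ± 0.16, adjusted p = 2.59e-07), 3.41-fold at 6 d (1.77 ± 0.16, adjusted p = 3.43e-09) and 3.24-fold at 8 d (1.70 ± 0.16, adjusted p = 6.24e-09). Its step from 2 d to 4 d was 2.03-fold (1.02 ± 0.16, adjusted p = 2.67e-05), and again differed by batch, at 0.72, 1.58 and 0.78. From 4 d to 8 d it moved by 0.32 ± 0.16, which was not called (adjusted p = 0.167), with −0.24 in batch B. Without batch B that last difference was 0.61 and called (adjusted p = 0.0253), and without the 4 d B array alone it was 0.54 (adjusted p = 0.0129). The highest value of CST3, 13.8, was below the highest probe of every array, 14.4 or more.

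CSTB, which encodes stefin B, rose in 2 separate steps. It read 11.07, 11.15 and 10.98 at 0 h, and 11.20, 11.16 and 11.50 at 24 h. At 2 d it read 11.85, 11.89 and 11.55, above every earlier array. At 4 d it read 11.26, 11.34 and 11.28, below every 2 d array and above every 0 h array. At 6 d it was back at 11.86, 11.97 and 11.79, and at 8 d at 11.92, 12.00 and 12.11. CSTB was 1.62-fold above 0 h at 2 d (0.70 ± 0.12, adjusted p = 0.000179), and at 4 d the difference from 0 h was 0.22 ± 0.12 and not called (adjusted p = 0.142). It was 1.75-fold above 0 h at 6 d (0.81 ± 0.12, adjusted p = 7.64e-06) and 1.92-fold at 8 d (0.94 ± 0.12, adjusted p = 7.97e-07).

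The drop of CSTB at 4 d against 2 d was −0.47 ± 0.12 (adjusted p = 0.00384) and was seen in all batches, at −0.59, −0.55 and −0.27. The call was lost with median centring (−0.36, adjusted p = 0.156), without batch A (−0.41, adjusted p = 0.0808) and without batch B (−0.43, adjusted p = 0.0917). From 4 d to 8 d CSTB was 1.65-fold higher (0.72 ± 0.12, adjusted p = 0.000157), and with median centring 0.52 (adjusted p = 0.0556). CST1, CST3 and CST4 were higher at 4 d than at 2 d in all 3 batches, and CSTB and CST6 were lower in all 3, CST6 without a call.

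CST6, which encodes cystatin E/M, stayed near background. Its probe was above background on 15 arrays and read between 5.36 and 5.93 throughout, and neighbours in order of mean level overlapped. Taken in time, its arrays did not overlap between 4 d and 2 d, 6 d and 4 d, or 8 d and 6 d. Between 4 d and 2 d its difference was −0.25 ± 0.12 (−0.24, −0.24 and −0.26 in the batches), which had an unadjusted p under 0.05 but was not called (adjusted p = 0.102). At 8 d against 4 d the difference was 0.05 ± 0.12 (adjusted p = 0.813). Its largest difference from 0 h was 0.25 ± 0.12 at 2 d (adjusted p = 0.123), which was called only when the 0 h B array was left out (0.36, adjusted p = 0.0437). The second CST6 probe was above background on 0 arrays. CSTA, which encodes stefin A, a cystatin of the epidermis, was above background on 0 of 24 arrays and read between 4.47 and 5.12, so no change in it could be measured.

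**Figure D4:**
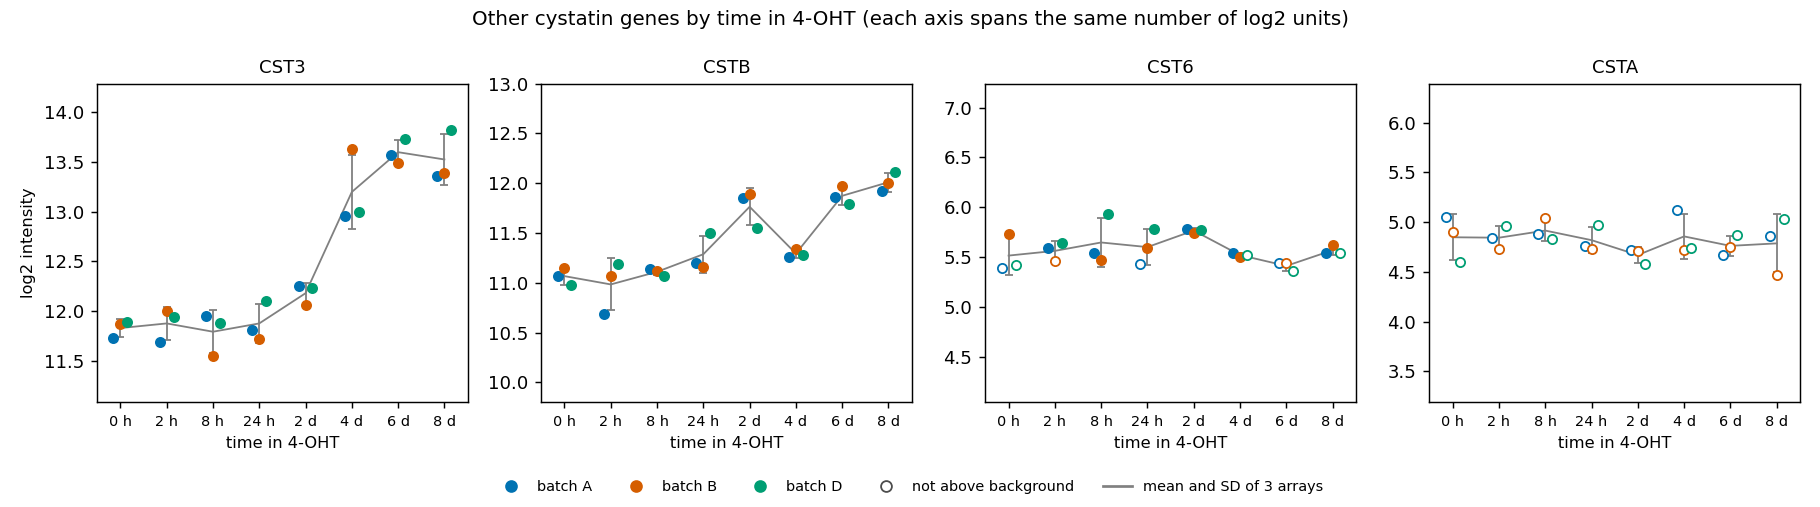
Log2 intensity (y axes, each spanning the same number of log2 units) of CST3, CSTB, CST6 and CSTA on each array by time in 4-OHT (x axes), marked as in the plot of the salivary-type genes. CST3 steps up at 4 d, and CSTB is high at 2 d, back at 11.26 to 11.34 at 4 d and high again from 6 d. CST6 stays between 5.36 and 5.93, near background, and CSTA is above background on 0 arrays.

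At 4 d the batch B array was the highest of the 3 for CST1, CST2, CST4, CST3 and CSTB. At 8 d the batch D array was the highest for the same 5 genes. CST1 was highest in batch D at 7 of the 8 times, 0 h included, with 4 d as the exception. The 4 d batch B array was also the furthest toward the late arrays on the first principal component, and its part in the 4 d values was not tested. At 6 d and 8 d, where that component spanned 41 to 50.8, the 3 batches of CST1 lay within 0.34 of each other at 6 d and 1.14 at 8 d.

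Genes with profiles most like each cystatin were ranked by Pearson r over the 24 arrays. The arrays share one time course with an early and a late block, so a high r mostly says that a gene is low early and high late. For CST1 the nearest were CST3 (r = 0.982), COL10A1, a collagen (0.981), GABRA2, a receptor subunit (0.980), and the cytokines IL1A (0.979) and IL1B (0.978). For CST3 they were CST1, IL1B (0.977) and IL1A (0.974). For CST4 they were PI3, which encodes the elastase inhibitor elafin (0.975), the transcription factor EHF (0.973) and the protease MMP12 (0.971). For CST2 they were PI3 (0.941), FKBP1A (0.935) and CST4 (0.935). CST2, CST4, PI3 and EHF were above background on 7, 9, 7 and 9 of the 24 arrays, so their r rest largely on values near the floor. By rank, CST2 and CST4 correlated at 0.54 (Spearman). CSTB had other neighbours, POLR2F (0.937), GSTO1 (0.921) and CRYL1 (0.919). CST6, near background, reached 0.732 with KIFAP3, 0.697 with PLGRKT and 0.664 with ITPKB.

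Transcripts of listed cysteine proteases, enzymes of the kind that cystatins block, were called in both directions, as transcripts of all genes were. Of 12 listed cysteine protease genes 11 were tested, and at 8 d against 0 h 4 were higher and 2 lower, where 24.1% and 23.5% of all 10958 genes were. Their median log2 change was 0.25 beside 0.02 over all genes. At 24 h against 0 h 1 was higher and 4 lower, against 6.89% and 11.2% of all genes (median −0.28 beside −0.003). At 2 d against 0 h 1 was higher and 4 lower, against 11% and 12.5% of all genes (median −0.33 beside 0.01). At 4 d against 2 d 5 were higher and 2 lower, against 17% and 19.2% (median 0.38 beside −0.01). Of these calls, the 2 lower ones (CTSL and CTSV) were lost in several settings. The calls of CTSB (0.46, adjusted p = 0.112) and LGMN (0.70, adjusted p = 0.058) were lost without batch B. CTSS, a cathepsin best known from antigen-presenting cells, read 8.31, 8.41 and 7.96 at 8 d, against 5.18, 5.30 and 5.18, not above background, at 0 h, and was at least 6.61-fold higher (3.01 ± 0.18, adjusted p = 4.68e-12). Like CST4 it was above background on 9 arrays, all of 4 d to 8 d, so it entered the test through the times where it was high and its call lends no support to the count. CTSK, a collagen-degrading cathepsin, was 2.60-fold above 0 h at 8 d (1.38 ± 0.19, adjusted p = 1.82e-06). Its step was between 2 d and 4 d (1.79 ± 0.19, adjusted p = 1.44e-07), as was that of CST1. CTSB, a main target of cystatins in lysosomes, was 2.49-fold above 0 h at 8 d (1.31 ± 0.16, adjusted p = 4.69e-07).

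CTSL, another lysosomal cathepsin, was 2.05-fold above 0 h at 2 d (1.04 ± 0.15, adjusted p = 2.29e-05) and 1.94-fold at 8 d (0.96 ± 0.15, adjusted p = 1.41e-05). Between 4 d and 2 d its change was −0.55 ± 0.15 (adjusted p = 0.00625), with the sign of CSTB. That call was lost without the 4 d B array (−0.31, adjusted p = 0.0704), without batch B (−0.27, adjusted p = 0.168), with median centring (−0.46, adjusted p = 0.0525) and in the fit of those 2 times (adjusted p = 0.0637). CTSC, which activates serine proteases of granules, fell to 8.91, 9.01 and 8.99 at 8 d, against 10.71, 10.78 and 10.76 at 0 h (−1.78 ± 0.13, adjusted p = 8.67e-11). Its 2 other probes changed by −1.38 and −1.45. CTSV, close in sequence to CTSL, was −0.58 ± 0.13 from 0 h at 8 d, with 1 of 3 arrays above background there (adjusted p = 0.000643). Between 4 d and 2 d CTSV changed by −0.35 ± 0.13 (adjusted p = 0.0361), with 0 arrays above background at 4 d. That call was lost with the series matrix values (adjusted p = 0.0534) and with median centring (adjusted p = 0.118), among other settings. LGMN, which encodes legumain, the enzyme that cystatins C and E/M also block, was lower from 24 h (−0.71 ± 0.17, adjusted p = 0.00441). At 2 d LGMN read 6.99, 6.89 and 6.92, against 8.31, 8.20 and 7.89 at 0 h (−1.20 ± 0.17, adjusted p = 1.28e-05). It was still below 0 h at 4 d (−0.43 ± 0.17, adjusted p = 0.0401). By 4 d it was 0.77 ± 0.17 above 2 d (adjusted p = 0.00095; 0.70, adjusted p = 0.058, without batch B). At 8 d its difference from 0 h was 0.25 ± 0.17, which was not called (adjusted p = 0.24), and with median centring it was −0.033.

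**Figure D5:**
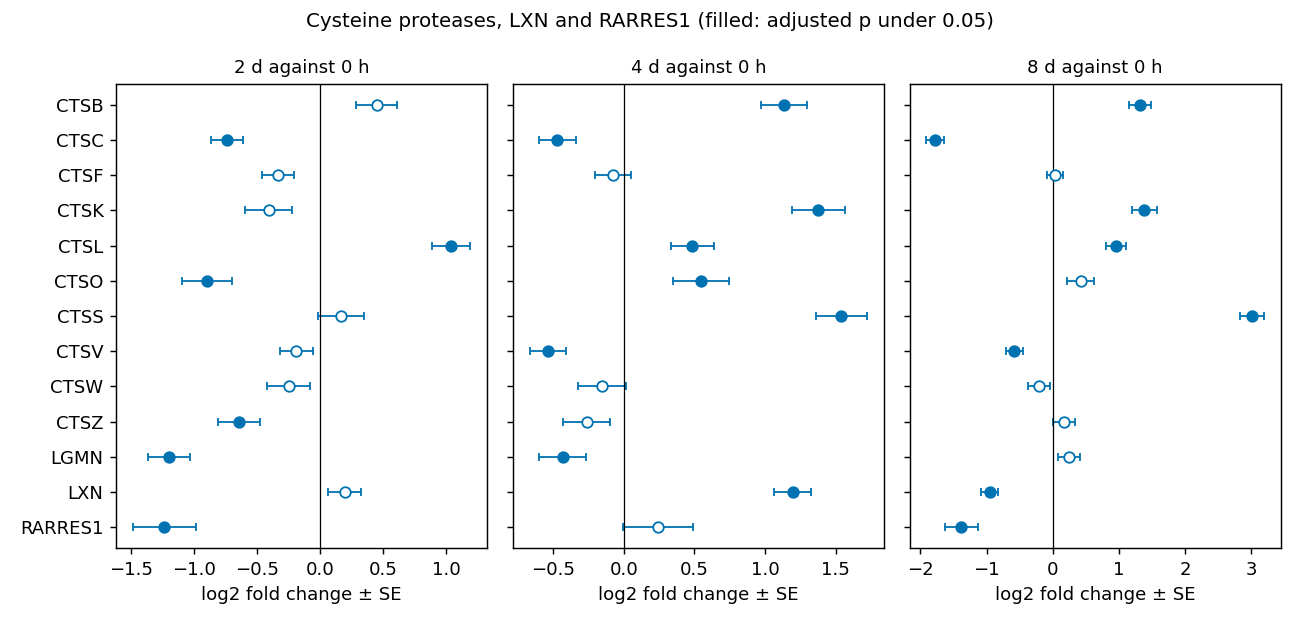
Log2 fold change ± SE (x axes) of 11 cysteine protease genes, LXN and RARRES1 (rows) at 2 d, 4 d and 8 d against 0 h, with filled points for an adjusted p under 0.05. LGMN lies at −1.20 at 2 d and at 0.25 at 8 d, CTSS reaches 3.01 at 8 d, and LXN is above 0 at 4 d and below 0 at 8 d.

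Most other genes of the cystatin superfamily were not above background. Of 13 listed, 3 were tested, where 10958 of the 18774 named genes on the array were. The other 10, among them CST5, CST9, AHSG and KNG1, were above background on 0 arrays. At 8 d against 0 h, 0 were higher and 2 lower, where 24.1% and 23.5% of all genes were (median −0.95 beside 0.02). At 4 d against 2 d, 2 were higher and 0 lower, where 17% and 19.2% of all genes were (median 1.01 beside −0.01). LXN, which encodes latexin, an inhibitor of carboxypeptidases with a cystatin-like fold, read 10.86, 10.76 and 11.06 at 4 d, against 9.91, 9.70 and 10.04 at 2 d (1.01 ± 0.13, adjusted p = 2.77e-06). At 8 d it read 8.81, 8.65 and 8.76, below 9.55, 9.61 and 9.91 at 0 h (−0.95 ± 0.13, adjusted p = 2.05e-06). RARRES1, whose protein resembles latexin, was also higher at 4 d than at 2 d (1.48 ± 0.25, adjusted p = 6.38e-05) and lower at 8 d than at 0 h (−1.38 ± 0.25, adjusted p = 7.02e-05, 1 of 3 arrays above background at 8 d). Its 4 d arrays read 7.54, 6.01 and 7.61, with batch B the lowest. Of its 2 other probes, 1 changed by −1.08 at 8 d and 1.45 at 4 d, and the other was above background on 0 arrays. On all 3 batches LXN was higher at 4 d than on any array of the other times, while RARRES1 at 4 d differed from 0 h by 0.24 ± 0.25, which was not called (adjusted p = 0.467).

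CSTA and CST6 take part in forming the cornified envelope of skin, so genes of that structure were counted too. Of 18 listed, 17 had a probe, 4 were tested, and at 8 d against 0 h 1 was higher and 1 lower, near the 24.1% and 23.5% of all genes. LCE2A, a late cornified envelope protein, was at least 14.2-fold above 0 h at 8 d (4.40 ± 0.20, adjusted p = 4.69e-14). It was above background on 18 arrays, all of 8 h to 8 d, and so entered the test through the times where it was high. DSP, which encodes desmoplakin, was −1.20 ± 0.20 from 0 h (adjusted p = 2.35e-05, 1 of 3 arrays above background at 8 d). The tested median was 0.03 beside 0.02 over all genes.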

How the data were processed

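IMR90 ER:RAS-G12V cells were profiled at 8 time points with 3 replicates each on Illumina human-6 v2 BeadChips, labelled by time and batch letter. The array values as deposited cover 48701 probes and are log2 intensities, judged by their range (3.21 to 14.8), and the deposited series matrix holds log2 intensities normalized by the authors to nearly equal medians (5.81 on the 24 arrays). Other processing steps are not given in the sources used here. Detection p-values, control probes and bead counts were not used here.

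Deposited array values were put on the linear scale, corrected with normexp (saddle, offset of 16), turned to log2 and quantile-normalized. For each array a background model was built from the mode of its values (5.54 to 6.01) and the spread below it. Probes with 1 platform symbol (23687, with 35 naming several and 24979 none) were kept if above background on at least 3 arrays (12444), and the probe with the highest series-matrix mean stood for each of 10958 genes. By Entrez ID, 99.8% of named probes matched RefSeq. The largest share of identical values between any 2 arrays was 0%.

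limma 3.58.1 in R 4.3.3 fitted 8 group means to all 24 arrays without a block (16 residual and 6.70 prior degrees of freedom), with Benjamini-Hochberg adjustment over all genes, and was tested on simulated data. Means are of 3 arrays, and ± is the standard error from the fit, shared by all time points. The letters pair the arrays because the labels give them as batches. After removing group means, same-letter arrays correlated at 0.0368 (A), 0.0043 (B) and 0.0599 (D) on average, and arrays of other letters at −0.0158. Where the dim group was above background on 0 arrays, a fold is a bound ("at least"), taken over the dimmest above-background signal of those arrays or the gene's own signal, whichever is higher.

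The members, the lists and the tests were chosen with earlier results of these data known. The genes named are the 7 cystatins, with CSTA untested. Of the lists, up to 4 called members with the largest change at 8 d are named, plus LGMN, CTSB, CTSL, CTSV and CTSK. Of the marker lists, EPCAM, KRT8 and KRT19 were above background on 4, 6 and 7 arrays and KRT18 on 24. Of endothelial markers, TEK was above background on 24 arrays, VWF on 18, CLDN5 on 8, PECAM1 on 5 and KDR on 3. Of immune markers, CD68 and CSF1R were above background on 24 arrays and ITGAM on 0. Promoter sequences came from RefSeq (GRCh38.p14), read with Python 3.11.15 and pandas 2.3.3, and figures were drawn with matplotlib 3.10.9. Alternatives were the series matrix values, a normexp offset of 50, median centring, other filters on dim probes, the mean of a gene's probes, the batch letter as a fixed or random block, fits of the 2 times compared, and leaving out each array, each batch or, chosen after seeing the data, the 4 d arrays.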

Additional observations from a re-analysis of the deposited data

How the results depend on the processing

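The calls of CST1, CST4, CST2, CST3 and CSTB at 6 d and 8 d against 0 h held under every alternative run. CST4 and CST2 entered the test only through arrays of 4 d to 8 d, so their unchanged calls lend no support. At 24 h against 0 h the count of cystatin genes called was 0, and 1 (CST1) with the batch letter as a replicate block (adjusted p = 0.0265), in the fit of the 2 times compared (0.0205) and without the 4 d arrays (0.0173). The other settings left CST1 uncalled at 24 h, with an adjusted p of 0.168 at an offset of 50 and 0.241 without the 24 h D array. The replicate block changed no other cystatin call. At 4 d against 2 d the count was 4, and 2 to 4 when an array or batch was left out. The other cystatin counts stayed within 1.5 times. CST3 at 2 d was called in the fit of the 2 times compared (0.35, adjusted p = 0.021).

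Where the sign of an uncalled difference from 0 h turned when an array or batch was left out, the ranges were, at 2 h, −0.24 to 0.12 for CST1, −0.050 to 0.15 for CST2, −0.011 to 0.15 for CST3, −0.042 to 0.21 for CST6 and −0.23 to 0.065 for CSTB. At 8 h they were −0.069 to 0.25 for CST1, −0.050 to 0.032 for CST2, −0.063 to 0.21 for CST4, −0.17 to 0.11 for CST3 and −0.060 to 0.32 for CST6. At 24 h they were −0.12 to 0.045 for CST4, −0.061 to 0.15 for CST3 and −0.057 to 0.20 for CST6. At 4 d they were −0.026 to 0.49 for CST2 and −0.063 to 0.12 for CST6, at 6 d −0.18 to 0.0058 and at 8 d −0.0068 to 0.16 for CST6. CST2 at 4 d against 2 d ran from −0.22 to 0.21.

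Median centring, which does not equalise the arrays' distributions, moved the median of all genes against 0 h by −0.16 at 2 h, −0.12 at 24 h, −0.11 at 2 d, −0.15 at 6 d and −0.18 at 8 d, and by −0.10 at 8 d against 4 d. It turned CST3 to −0.12 at 2 h, 0.0048 at 8 h and −0.079 at 24 h, CST6 to −0.00028 at 2 h and −0.030 at 4 d, and LGMN to −0.033 at 8 d. Relative to the median of all genes under that centring (−0.15 at 8 d), CST1 at 8 d was 7.07, CST4 3.80, CST3 1.62, CST2 1.58 and CSTB 0.87. The share of higher among called genes became 56.5% in place of 67.6% at 2 h, 10.5% in place of 38.1% at 24 h, 20.5% in place of 46.8% at 2 d, 37.3% in place of 49.5% at 4 d, 30.4% in place of 52.2% at 6 d, 27.3% in place of 50.7% at 8 d, and 25% in place of 50.7% at 8 d against 4 d.

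Counts of all genes called moved by over 1.5 times in some settings. At 2 h there were 68 calls (1 to 151 with an array or batch left out, 23 with median centring, 28 in the fit of 2 times). At 8 h there were 502 (27 to 580, and 165 with median centring), at 24 h 1982 (666 to 1682) and at 2 d 2584 (882 to 2652, and 1680 with median centring). At 4 d there were 4832 (3114 to 5029) and at 6 d 4985 (3272 to 4966). At 4 d against 2 d there were 3963 (1988 to 4354, and 2483 with median centring), and at 8 d against 4 d 2239 (856 to 2668, 1287 with median centring and 979 in the fit of 2 times). The cause was not tested. With values near background, a larger offset shrinks folds: CST4 at 8 d was 2.86 with an offset of 50, against 3.79.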
